A study of Saccharomyces cerevisiae with 10 samples.

Results

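The nuclear genes of the mitochondrial respiratory chain and of ATP synthase were followed through 5 mutation accumulation lines of the budding yeast Saccharomyces cerevisiae. A list of 36 subunit genes defined the group: 4 of complex II, 9 of complex III, both cytochrome c genes, 9 of complex IV and 12 of complex V. All 36 have a probe row in the deposited table, and 34 have values on all 10 arrays. The rows of ATP2 (the beta subunit of the catalytic F1 part of ATP synthase) and ATP16 (its delta subunit) are empty on every array, so these genes were not analysed. The 34 measured genes were set against all 5415 genes tested.

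The lines carry the names MA-A8, MA-A4, MA-A3, MA-A1 and MA-A0. Mutation accumulation passes a strain through repeated bottlenecks, so that new mutations are kept with little selection. Every pairing of lines has its own array, 10 in all, with total RNA of one line in Cy5 and of the other in Cy3, so every line lies on 4 arrays, 2 with each dye. The labels give the lines by name only. The genotype of the founding strain, its ploidy, the growth medium and the number of transfers are not stated in the labels, no founding strain is among the labelled samples, and each line is 1 lineage. Nothing says that a line's 4 RNA samples were grown separately, so errors and p-values reflect spread between hybridisations only, and precision is limited by having 10 arrays.

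Values were taken to be log2 of Cy5 over Cy3, following the order of the channels in the labels. Neither the base nor the direction is stated, and the opposite reading would turn every sign given here. A line value is the fitted log2 level of that line minus the mean of the other 4 lines, and a pair value is the fitted difference between 2 lines. Errors after ± are standard errors of the fit to the 10 arrays. All adjusted p-values are limma's, with Benjamini-Hochberg adjustment over the 5415 genes, and a gene passed at 0.05. The 5 line values of a gene come from the same arrays, so a shift in one line enters the other lines' values diluted and with the opposite sign.

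In the respiratory chain, electrons from succinate enter through complex II (succinate dehydrogenase) and reach ubiquinone. Complex III passes them to cytochrome c, complex IV (cytochrome c oxidase) hands them to oxygen, and complexes III and IV build the proton gradient that complex V (ATP synthase) uses to make ATP. Budding yeast has no proton-pumping complex I and oxidises NADH through single-polypeptide dehydrogenases. A few core subunits are made from the mitochondrial genome and the rest, described here, from nuclear genes. Many of these nuclear genes are repressed by glucose and activated by the Hap2/3/4/5 complex, whose limiting part is Hap4.

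The subunit genes lay high in MA-A0 and MA-A3 and low in MA-A1 and MA-A8. The line value was above 0 for 34 of 34 genes in MA-A0, with a median of 0.23, and for 32 of 34 in MA-A3, with a median of 0.20. In MA-A1 only SDH1 and COX8 lay above 0 and the median was -0.33. In MA-A8, 4 of 34 lay above 0 and the median was -0.16, and MA-A4 stood near the middle with 19 of 34 above 0 and a median of 0.04. Over all genes tested, the share above 0 ran from 44.0% in MA-A1 to 54.3% in MA-A4.

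The order of the lines within each gene comes from the same fitted values, so it is not separate support. The 34 genes also departed from the fit together on single arrays. On the array of MA-A0 against MA-A8 their median departure was -0.30, against -0.01 over all genes. Counts out of 34 are therefore not counts of independent genes. The array of MA-A0 against MA-A8 also had the widest departures over all genes. Their scaled median absolute deviation was 0.25 there, against 0.13 to 0.20 on the other arrays. The highest line was MA-A0 for 18 of the 34 genes and MA-A3 for the other 16. The lowest line was MA-A1 for 21 genes and MA-A8 for 13. Among all genes tested, MA-A0 was highest for 19.7% and MA-A3 for 26.0%, and MA-A1 was lowest for 23% and MA-A8 for 21.4%.

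**Figure D1:**
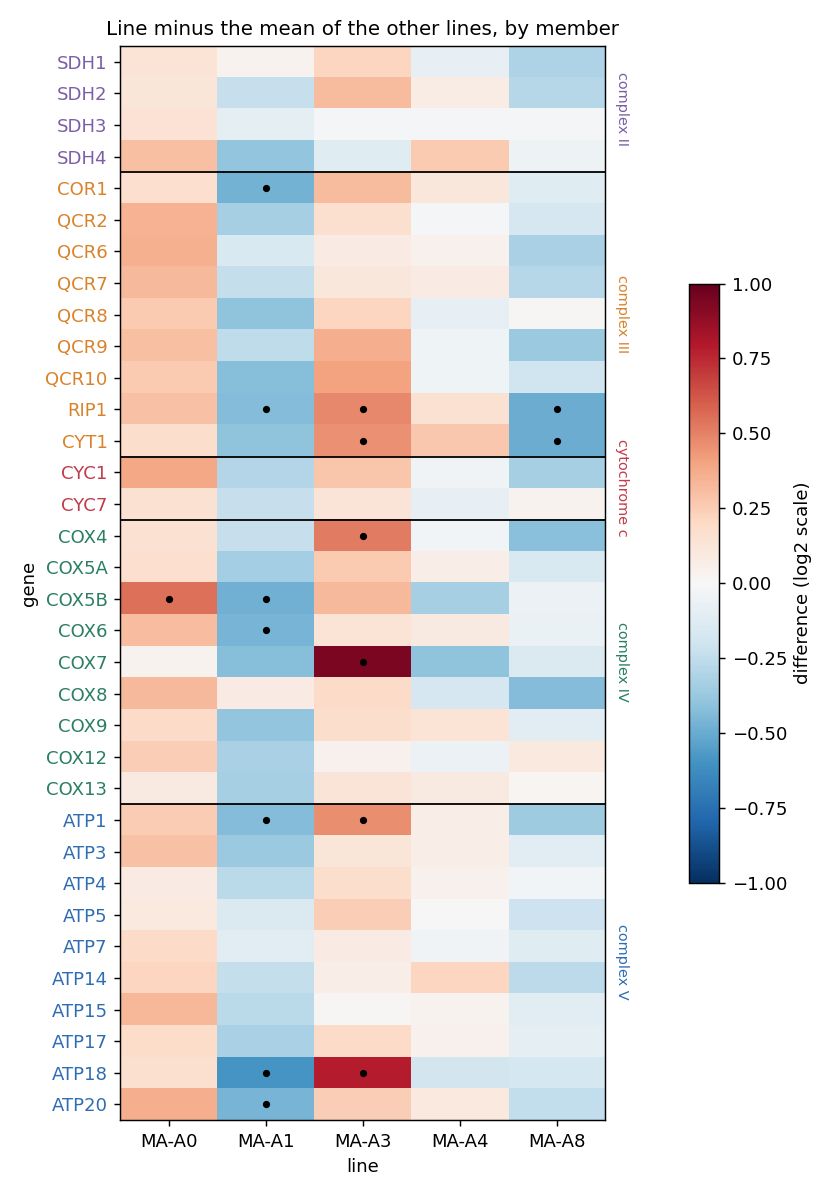
Line values (log2, line minus the mean of the other 4) of the 34 measured genes, 1 row a gene grouped by complex, across the 5 lines, with red above 0, blue below 0 and a dot where limma's adjusted p is under 0.05. The MA-A0 column is above 0 for all 34 genes and the MA-A1 column is below 0 for all but SDH1 and COX8.

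Across the 5 lines together, 14 of 34 genes (41.2%) passed limma's F test, against a background of 18.7% of all genes tested. These were COR1, QCR10, RIP1 and CYT1 of complex III, the cytochrome c gene CYC1, then COX4, COX5B, COX6, COX7 and COX8 of complex IV, and ATP1, ATP14, ATP18 and ATP20 of complex V. None of the 4 complex II genes passed, with 2 of them under 0.05 before adjustment. Of the 4117 tested genes placed outside chromosomes IX, XI, XII and XIII, 1109 had an unadjusted F test p under 0.05. That share is a background for the unadjusted F test counts here and below. The difference between the highest and the lowest line had a median of 0.54 over the 34 genes and ran from 0.19 for SDH3 to 1.10 for ATP18, against a median of 0.35 over all genes. Their residual standard deviation was also larger, with a median of 0.29 against 0.21 for all genes.

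Of the 14 genes, RIP1, CYT1, COX5B, ATP1, ATP18 and ATP20 passed whichever single array was left out. The count fell to 6 without the array of MA-A3 and MA-A1. It was 8 without the array of MA-A1 and MA-A0, of MA-A8 and MA-A3, of MA-A8 and MA-A1 or of MA-A3 and MA-A0. It was 28 without the array of MA-A0 and MA-A8, when 1906 genes of the whole table passed. With variances not moderated across genes none of the 14 passed. With arrays centred within each chromosome COR1, QCR10, CYC1, COX4, COX7, COX8 and ATP18 no longer passed, and with the sign of the MA-A0 and MA-A8 array turned QCR10, COX5B, COX7 and ATP18 were the 4 of the 14 that still did.

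Set against the other lines, MA-A1 had 7 genes lower (background 1.96%) and none higher (background 1.85%), and MA-A3 had 6 higher (background 10.8%) and none lower (background 6.19%). MA-A8 had 2 lower (background 2.01%) and none higher (background 1.31%). MA-A0 had 1 higher (background 0.222%) and none lower (background 0.111%), and MA-A4 had none higher (background 1.72%) or lower (background 1.87%) by limma, with 4 genes under 0.05 before adjustment. Before adjustment, 22 genes lay under 0.05 in MA-A1, 14 in MA-A3, 14 in MA-A0 and 12 in MA-A8. Of the 4117 tested genes placed outside chromosomes IX, XI, XII and XIII, 668 lay under 0.05 in MA-A1 and 938 in MA-A3. In MA-A0 it was 615, in MA-A8 714 and in MA-A4 543, so the 4 in MA-A4 are near the background. The MA-A1 count was 0 without any of the arrays that pair MA-A1 with MA-A0, MA-A4, MA-A8 or MA-A3, 3 without the array of MA-A3 and MA-A0, and 17 without the array of MA-A0 and MA-A8. The MA-A3 count was 2 without the array of MA-A8 and MA-A3 or of MA-A3 and MA-A0, and 10 without the array of MA-A0 and MA-A8 or of MA-A4 and MA-A3. The MA-A8 count was 0 without the array of MA-A8 and MA-A3 or of MA-A8 and MA-A1, and 5 without the array of MA-A0 and MA-A8. The MA-A0 count was 11 without the array of MA-A0 and MA-A8, 1 without the array of MA-A4 and MA-A3 or of MA-A8 and MA-A3, and 0 without any other. With arrays centred within each chromosome the MA-A1 calls of COR1, RIP1, ATP1 and ATP18 were lost (adjusted p from 0.0766 to 0.105), and those of COX5B, COX6 and ATP20 were kept.

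**Figure D2:**
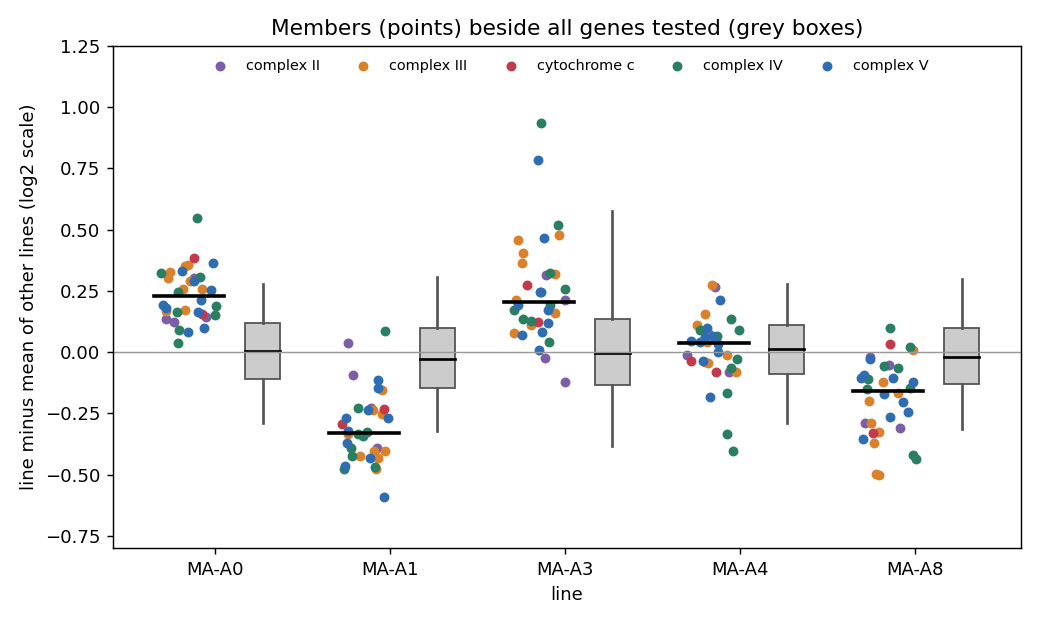
Line values (log2) of the 34 genes in each line, 1 point a gene coloured by complex with a bar at the median, beside grey boxes for all genes tested (median, quartiles, and whiskers at percentiles 5 and 95). The medians of the 34 are 0.23 in MA-A0, -0.33 in MA-A1, 0.20 in MA-A3, 0.04 in MA-A4 and -0.16 in MA-A8.

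Complex II, which also works in the citric acid cycle, had the narrowest range of medians. Its median line value was 0.14 in MA-A0, -0.16 in MA-A1, 0.10 in MA-A3, 0.03 in MA-A4 and -0.17 in MA-A8. SDH1, the flavoprotein subunit, exceeded its MA-A8 level in MA-A3 by 0.42 ± 0.13 (adjusted p = 0.0365), and SDH2, the iron-sulphur subunit, by 0.48 ± 0.15 (adjusted p = 0.0403). The membrane anchors SDH3 and SDH4 passed in no comparison. SDH3 lay between -0.09 and 0.14 in all 5 lines (F test adjusted p = 0.93), and SDH4 had 0.30 in MA-A0 and -0.39 in MA-A1 (F test adjusted p = 0.218). SDH1 and SDH3 lie on chromosome XI and SDH2 on chromosome XII, whose genes had medians of 0.115 and 0.255 in MA-A1. With arrays centred within each chromosome, the MA-A1 values were -0.075 for SDH1, -0.48 for SDH2, -0.205 for SDH3 and -0.325 for SDH4. SDH2 in MA-A3 was then 0.41 and passed (adjusted p = 0.0466).

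Complex III, the cytochrome bc1 complex, had the widest medians of the 4 complexes: 0.29 in MA-A0, -0.40 in MA-A1, 0.32 in MA-A3, 0.04 in MA-A4 and -0.29 in MA-A8. All 9 genes lay above 0 in MA-A0 and in MA-A3, and all 9 lay below 0 in MA-A1. RIP1, the Rieske iron-sulphur protein, and CYT1, cytochrome c1, are the subunits that carry electrons from ubiquinol to cytochrome c.

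On the arrays themselves, RIP1 in MA-A3 differed by 0.29 from MA-A0, 0.75 from MA-A1, -0.03 from MA-A4 and 0.91 from MA-A8. In MA-A8 it differed by -0.79 from MA-A0, 0.09 from MA-A1, -0.91 from MA-A3 and -0.37 from MA-A4. MA-A3 was thus above 3 of its 4 partners and MA-A8 below 3 of its 4. The fit gave RIP1 line values of 0.48 ± 0.10 in MA-A3 (adjusted p = 0.00416), -0.43 ± 0.10 in MA-A1 (adjusted p = 0.0378) and -0.50 ± 0.10 in MA-A8 (adjusted p = 0.0176). The RIP1 difference MA-A3 minus MA-A8 was 0.78 ± 0.13 (adjusted p = 0.000904), which is 1.72-fold if the values are log2. The MA-A3 call was lost without the array of MA-A8 and MA-A3 (adjusted p = 0.064) or of MA-A3 and MA-A0 (adjusted p = 0.0543).

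CYT1 in MA-A3 differed by 0.19 from MA-A0, 0.61 from MA-A1, -0.06 from MA-A4 and 1.09 from MA-A8, and in MA-A8 by -0.39 from MA-A0, -0.05 from MA-A1 and -0.47 from MA-A4. MA-A8 was therefore the lower line on all 4 of its arrays. The line value was 0.46 ± 0.11 in MA-A3 (adjusted p = 0.00903) and -0.50 ± 0.11 in MA-A8 (adjusted p = 0.0243). CYT1 was also higher in MA-A4 than in MA-A8, by 0.62 ± 0.14 (adjusted p = 0.0358). The MA-A3 call was lost without the array of MA-A8 and MA-A3 (adjusted p = 0.133), of MA-A3 and MA-A0 (adjusted p = 0.0607) or of MA-A3 and MA-A1 (adjusted p = 0.0516).

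COR1, a core subunit of complex III, was lower in MA-A1 on each of its 4 arrays, with differences of -0.19 against MA-A0, -0.95 against MA-A3, -0.29 against MA-A4 and -0.47 against MA-A8. Its line value in MA-A1 was -0.48 ± 0.11 (adjusted p = 0.0385). QCR10, a small subunit, passed the F test (adjusted p = 0.0485) and no single line, with 0.41 ± 0.13 in MA-A3 and -0.43 ± 0.13 in MA-A1. QCR2, the other core subunit, and the small subunits QCR6, QCR7, QCR8 and QCR9 did not pass, with F test adjusted p-values from 0.0584 for QCR9 to 0.23 for QCR6. QCR9 was higher in MA-A3 when set against MA-A8, by 0.59 ± 0.17 (adjusted p = 0.0259).

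Cytochrome c, the soluble carrier between complexes III and IV, is made from CYC1 (the main aerobic form) and CYC7 (the form favoured at low oxygen). CYC1 in MA-A0 differed by 0.42 from MA-A1, -0.22 from MA-A3, 0.35 from MA-A4 and 0.99 from MA-A8. It passed the F test (adjusted p = 0.0474), with 0.39 ± 0.13 in MA-A0 and -0.33 ± 0.13 in MA-A8, neither past the threshold for a single line. CYC7 in MA-A0 differed by 0.44 from MA-A1, 0.12 from MA-A3, 0.50 from MA-A4 and -0.44 from MA-A8. It did not pass the F test (adjusted p = 0.504), and its line values ran from -0.23 in MA-A1 to 0.16 in MA-A0. Whether the CYC1 and CYC7 patterns differ from each other was not tested.

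Complex IV had median line values of 0.19 in MA-A0, -0.34 in MA-A1, 0.19 in MA-A3, -0.03 in MA-A4 and -0.11 in MA-A8, and 5 of its 9 genes passed the F test. COX7, a small subunit, showed the largest line value of all 34 genes. In MA-A3 it was above every partner, by 0.73 against MA-A0, 1.22 against MA-A1, 0.60 against MA-A4 and 1.20 against MA-A8. The fit gave 0.94 ± 0.16 (adjusted p = 0.000705), or 1.92-fold on the log2 reading, and the call held whichever array was left out.

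COX7 lies on chromosome XIII, whose genes had a median line value of 0.56 in MA-A3. Measured against the median of its own chromosome, COX7 stood 0.39 higher in MA-A3 (adjusted p = 0.129). A change of the gene itself and a shift of the whole chromosome cannot be told apart for it. COX4, the zinc-binding subunit, lies elsewhere (chromosome VII) and was higher in MA-A3 on all 4 arrays, by 0.31 against MA-A0, 0.72 against MA-A1, 0.14 against MA-A4 and 0.91 against MA-A8. Its line value was 0.52 ± 0.14 (adjusted p = 0.0168), lost without the array of MA-A8 and MA-A3 (adjusted p = 0.106), of MA-A3 and MA-A0 (adjusted p = 0.103) or of MA-A3 and MA-A1 (adjusted p = 0.15).

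COX6, a small subunit, was lower in MA-A1 on all 4 arrays, with differences of -0.59 against MA-A0, -0.57 against MA-A3, -0.20 against MA-A4 and -0.51 against MA-A8. Its line value in MA-A1 was -0.47 ± 0.09 (adjusted p = 0.0202). COX8 on chromosome XII passed the F test (adjusted p = 0.0479) and no single line, and was -0.44 ± 0.12 in MA-A8 and 0.09 ± 0.12 in MA-A1. Genes of chromosome XII had a median of 0.26 in MA-A1, and with arrays centred within each chromosome COX8 was -0.17 in MA-A1. COX9, COX12 and COX13 did not pass, with F test adjusted p-values of 0.106, 0.265 and 0.408.

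COX5A and COX5B encode alternative forms of the same complex IV subunit, COX5A the aerobic form and COX5B the form used at low oxygen. COX5B in MA-A0 was above every partner, by 0.79 against MA-A1, 0.18 against MA-A3, 0.92 against MA-A4 and 0.30 against MA-A8. Its line value was 0.55 ± 0.11 in MA-A0 (adjusted p = 0.0452) and -0.48 ± 0.11 in MA-A1 (adjusted p = 0.0303). It was higher in MA-A0 than in MA-A1 by 0.82 ± 0.13 (adjusted p = 0.0172) and than in MA-A4 by 0.71 ± 0.13 (adjusted p = 0.0165). COX5B lies on chromosome IX, whose genes had a median of -0.24 in MA-A4. Its own value in MA-A4 was -0.34, and -0.06 with arrays centred within each chromosome. That centring kept the MA-A1 call and the difference of MA-A0 from MA-A1, and ended the MA-A0 call (0.49, adjusted p = 0.114) and the difference of MA-A0 from MA-A4 (0.44, adjusted p = 0.145).

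COX5A in MA-A3 differed by 0.30 from MA-A0, 0.82 from MA-A1, -0.25 from MA-A4 and 0.17 from MA-A8. Its line values were 0.17 in MA-A0, -0.34 in MA-A1, 0.26 in MA-A3, 0.07 in MA-A4 and -0.15 in MA-A8 (F test adjusted p = 0.095). Its level in MA-A3 exceeded that in MA-A1 by 0.48 ± 0.14 (adjusted p = 0.0326). Both forms were therefore lowest in MA-A1, and the aerobic form was highest in MA-A3 and the low-oxygen form in MA-A0. For neither form were those highest lines told apart. MA-A3 minus MA-A0 was 0.08 ± 0.14 for COX5A (adjusted p = 0.778) and -0.18 ± 0.13 for COX5B (adjusted p = 0.442). The difference between the 2 forms was not tested.

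Complex V had median line values of 0.20 in MA-A0, -0.30 in MA-A1, 0.18 in MA-A3, 0.04 in MA-A4 and -0.15 in MA-A8, over its 10 measured genes. All 10 lay above 0 in MA-A0 and in MA-A3 and below 0 in MA-A1 and in MA-A8. ATP18, a small subunit of the membrane-bound Fo part, had the smallest F test adjusted p of the 34 genes (0.00102).

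ATP18 in MA-A3 was above every partner, by 0.49 against MA-A0, 1.19 against MA-A1, 0.51 against MA-A4 and 0.95 against MA-A8. In MA-A1 it was below every partner, with differences of -0.70 against MA-A0, -0.22 against MA-A4 and -0.26 against MA-A8 on the other arrays. The line value was 0.79 ± 0.11 in MA-A3 (adjusted p = 0.000176) and -0.59 ± 0.11 in MA-A1 (adjusted p = 0.0156). The difference between MA-A3 and MA-A1, 1.10 ± 0.14 (adjusted p = 0.000193) or 2.15-fold on the log2 reading, was the only one of 37 pair calls that passed in every alternative, but its size was not kept. ATP18 also lies on chromosome XIII, and with arrays centred within each chromosome this difference was 0.51 (adjusted p = 0.0269). Both line calls were lost there, with 0.23 in MA-A3 (adjusted p = 0.174) and -0.41 in MA-A1 (adjusted p = 0.0766).

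**Figure D3:**
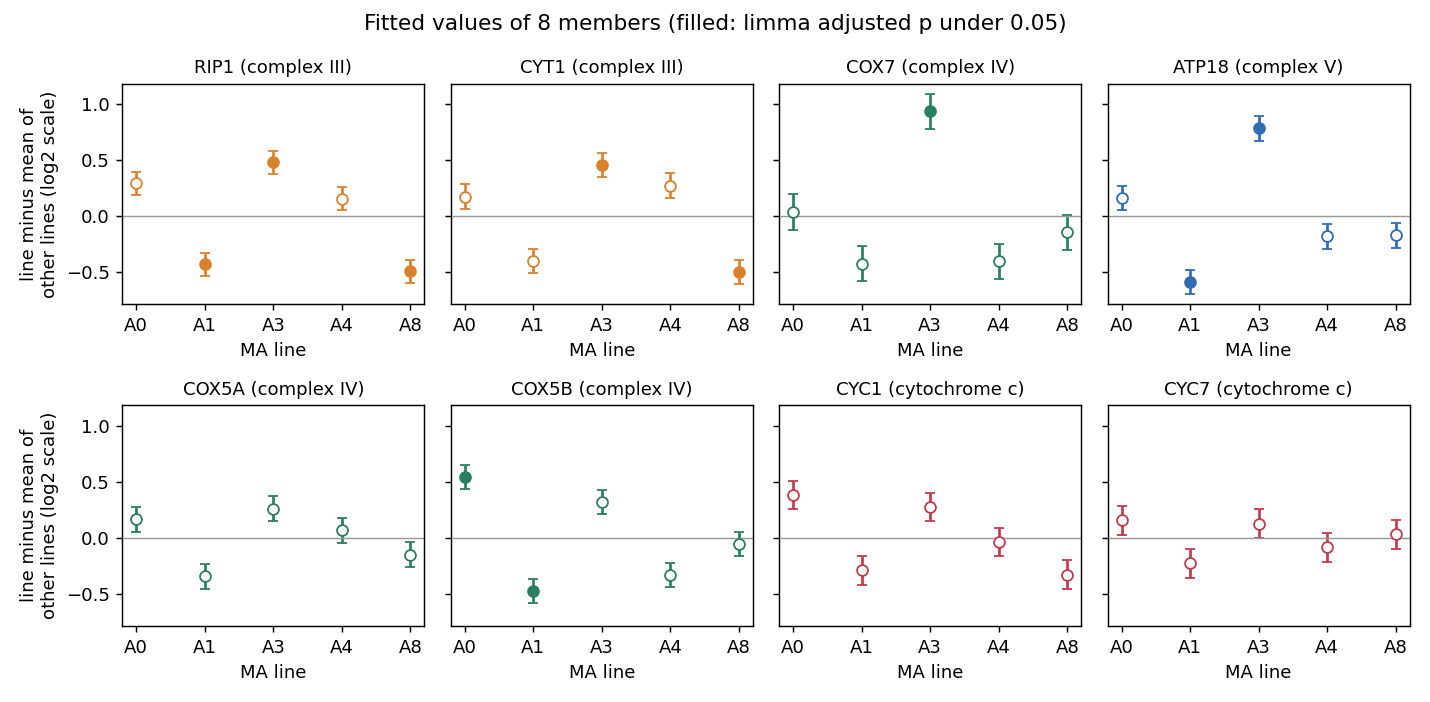
Line values (log2, with standard errors of the fit as bars) of RIP1, CYT1, COX7, ATP18 and the paralog pairs COX5A and COX5B, CYC1 and CYC7 in the 5 lines, filled where limma's adjusted p is under 0.05. COX7 and ATP18 stand at 0.94 and 0.79 in MA-A3, while COX5A and CYC7 pass in no line.

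ATP1, the alpha subunit of the catalytic F1 part, in MA-A3 differed by 0.51 from MA-A0, 0.79 from MA-A1, -0.11 from MA-A4 and 0.67 from MA-A8. In MA-A1 it was below every partner, with differences of -0.43 against MA-A0, -0.26 against MA-A4 and -0.24 against MA-A8 on the other arrays. The line value was 0.47 ± 0.10 in MA-A3 (adjusted p = 0.00531) and -0.43 ± 0.10 in MA-A1 (adjusted p = 0.0385). The MA-A3 call was lost without the array of MA-A8 and MA-A3 (adjusted p = 0.0752) or of MA-A3 and MA-A0 (adjusted p = 0.09).

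ATP20, subunit g, which takes part in joining ATP synthase into dimers, was lower in MA-A1 on all 4 arrays, with differences of -0.68 against MA-A0, -0.59 against MA-A3, -0.24 against MA-A4 and -0.35 against MA-A8. Its line value there was -0.47 ± 0.09 (adjusted p = 0.0202). ATP14, subunit h, passed the F test (adjusted p = 0.0477) and no single line. It lies on chromosome XII, and against that chromosome it was -0.49 in MA-A1 (adjusted p = 0.0222), where its uncorrected value was -0.24.

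The other complex V genes were ATP3 (the gamma subunit), ATP4 and ATP5 (parts of the peripheral stalk), ATP7, ATP15 (the epsilon subunit) and ATP17. None passed the F test, with adjusted p-values from 0.0662 for ATP15 to 0.511 for ATP7. ATP17 in MA-A3 exceeded its level in MA-A1 by 0.41 ± 0.12 (adjusted p = 0.0259). It was also the 1 gene of the 34 with a dye effect (adjusted p = 0.0361), against 275 of all genes.

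Chromosomes IX, XI, XII and XIII, whose genes had medians away from 0 in a line (-0.24 for IX in MA-A4, 0.12 for XI in MA-A1), hold 10 of the 34 genes. Of the 24 on other chromosomes, 9 passed the F test (37.5%), against 12.3% of the 4117 tested genes placed outside these 4 chromosomes. There were 5 lower in MA-A1 (20.8%, against 1.63%), 4 higher in MA-A3 (16.7%, against 4.66%) and 2 lower in MA-A8 (8.33%, against 1.41%). Their medians were 0.26 in MA-A0, -0.34 in MA-A1, 0.20 in MA-A3, 0.05 in MA-A4 and -0.16 in MA-A8, close to those of all 34. MA-A0 lay above 0 for 24 of 24 of them and MA-A1 for 0 of 24.

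Between single lines, no gene was called in the other direction, and each background is given as the share of all genes higher and then lower in the first line. The counts were largest for MA-A3 over MA-A1, with 13 genes (background 10.1% and 4.99%), and for MA-A3 over MA-A8, with 11 (10.8% and 7.46%). MA-A0 over MA-A1 gave 6 (0.886% and 0.942%), MA-A3 over MA-A4 gave 3 (8.01% and 3.58%) and MA-A3 over MA-A0 gave 2 (7.65% and 3.97%). MA-A0 over MA-A4 (1.16% and 0.591%) and MA-A4 over MA-A8 (0.794% and 1.39%) gave 1 each. MA-A0 against MA-A8 (0.295% and 0.129%), MA-A4 against MA-A1 (1.16% and 1.14%) and MA-A8 against MA-A1 (0.129% and 0.0923%) gave none by limma, with 18, 13 and 4 genes under 0.05 before adjustment. Of the 4117 tested genes outside chromosomes IX, XI, XII and XIII, 350, 583 and 590 lay under 0.05 in these pairs. The 4 for MA-A8 against MA-A1 are therefore not above the background. The MA-A3 over MA-A1 count was 3 without that pair's own array, 8 without the array of MA-A1 and MA-A0 or of MA-A8 and MA-A3, 20 without that of MA-A4 and MA-A3 and 21 without that of MA-A0 and MA-A8. The MA-A3 over MA-A8 count was 1 without its own array, 6 without the array of MA-A3 and MA-A0, of MA-A3 and MA-A1 or of MA-A8 and MA-A1, and 18 without that of MA-A0 and MA-A8. The MA-A0 over MA-A1 count was 25 without the array of MA-A0 and MA-A8, 3 without that of MA-A0 and MA-A4, and 0 without that of MA-A3 and MA-A0 or any array of MA-A1.

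Each pair also has an array of its own, and for these genes the arrays do not all close. On the array of MA-A0 and MA-A8, 18 of 34 genes were higher in MA-A0 and the median difference was 0.03, while the fit over all arrays placed 34 of 34 higher, with a median of 0.32. On the array of MA-A3 and MA-A4, 10 of 34 were higher in MA-A3 with a median of -0.12, while the fit placed 30 of 34 higher with a median of 0.15. On the array of MA-A3 and MA-A1, 32 of 34 were higher in MA-A3 with a median of 0.51, beside 34 of 34 and 0.42 in the fit. On the array of MA-A0 and MA-A1, 34 of 34 were higher in MA-A0 with a median of 0.58, beside 34 of 34 and 0.46 in the fit. The differences of MA-A3 and of MA-A0 from MA-A1 thus had the same direction directly and in the fit, and those of MA-A0 from MA-A8 and MA-A3 from MA-A4 were not seen in the medians of those pairs' arrays. The 3 genes called higher in MA-A3 than in MA-A4 were higher on the array of that pair too, by 0.60 for COX7, 0.51 for ATP18 and 0.36 for COX5B. Every pair's array is also part of the fit, so a shared direction is not separate support. With arrays centred within each chromosome none of the 3 was called (adjusted p = 0.134 for COX7, 0.37 for ATP18 and 0.396 for COX5B).

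**Figure D4:**
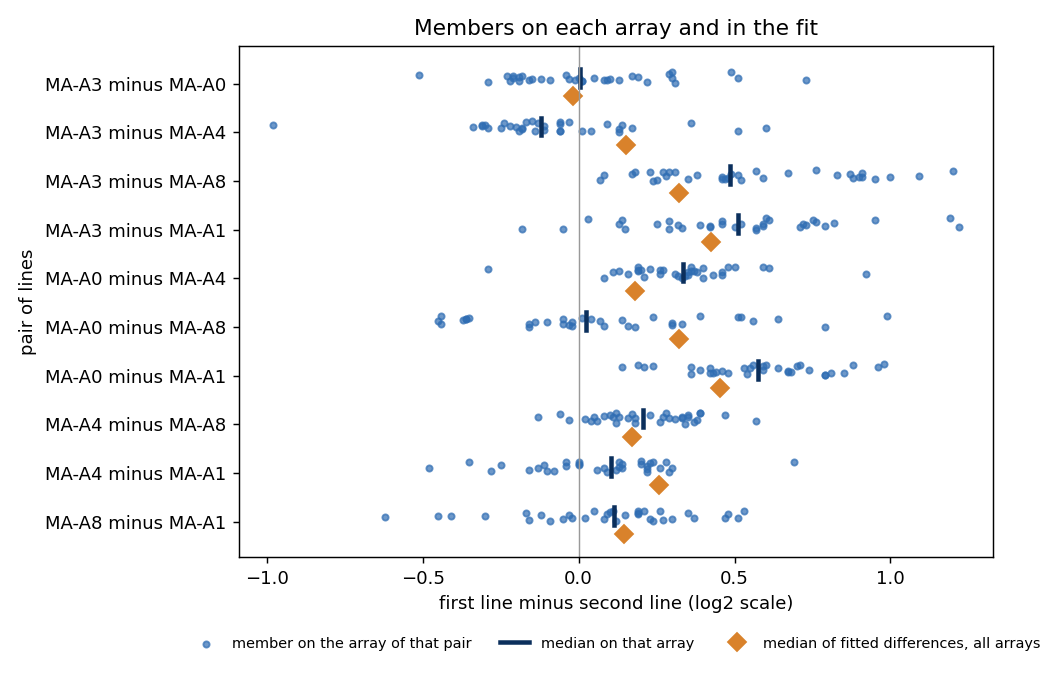
Log2 difference of the first line minus the second for each pair of lines, with 1 point for each of the 34 genes on the pair's own array, a bar at their median there and a diamond at the median of the fitted differences. For MA-A0 minus MA-A8 the array median is 0.03 and the fitted one 0.32, and for MA-A3 minus MA-A4 they are -0.12 and 0.15.

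Genes that act beside the subunits were described from lists. Only calls of the nuclear subunit genes were followed through the alternatives and the leaving out of single arrays. Whether calls in the lists here and below would hold there was not tested, those of the mitochondrial genome included. They should not be read as firmer than the calls of the nuclear subunit genes. Of 5 further ATP synthase subunits and regulators, 3 passed the F test, against a background of 18.7% of all genes tested. STF2, which helps the inhibitor bind, was 1.005 ± 0.12 in MA-A3 (adjusted p = 5.65e-05) and -0.69 ± 0.12 in MA-A8 (adjusted p = 0.00634). INH1, the inhibitor of ATP hydrolysis by ATP synthase, was 0.68 ± 0.14 in MA-A3 (adjusted p = 0.00321) and -0.63 ± 0.14 in MA-A8 (adjusted p = 0.0269). ATP19, subunit k, was 0.63 ± 0.12 in MA-A0 (adjusted p = 0.0452).

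All 4 ADP/ATP and phosphate carriers passed, against an F test background of 18.7%. The ADP/ATP carriers PET9 and AAC1 were higher in MA-A3, by 0.43 ± 0.10 (adjusted p = 0.0077) and 0.61 ± 0.10 (adjusted p = 0.000769), AAC1 lying on chromosome XIII. The phosphate carrier MIR1 was 0.41 ± 0.10 higher in MA-A3 (adjusted p = 0.0119). AAC3, the ADP/ATP carrier made at low oxygen, ran the other way, with -0.53 ± 0.10 in MA-A3 (adjusted p = 0.00141) and 0.59 ± 0.10 in MA-A1 (adjusted p = 0.0115).

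Of 7 transcriptional regulators only HAP4 passed the F test (adjusted p = 0.00388), with 3 of 7 under 0.05 before adjustment. The F test background was 18.7% of all genes tested. HAP4 was 0.92 ± 0.15 in MA-A3 (adjusted p = 0.000618) and -0.69 ± 0.15 in MA-A8 (adjusted p = 0.0256). HAP4 was -0.13 ± 0.15 in MA-A0 and -0.11 ± 0.15 in MA-A1. Whether HAP4 levels relate to those of the subunit genes was not tested.

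Of 28 measured assembly factors 4 passed the F test, 4 were higher in MA-A3 and 1 (COX19) was lower in MA-A8, and their median in MA-A3 was 0.17. The shares, 14.3% for the F test and for higher in MA-A3, compare with 18.7% and 10.8% of all genes, so the list stood near the background. COX14 (chromosome XIII) was 0.73 ± 0.12 in MA-A3 (adjusted p = 0.000428), COX19 was 0.44 ± 0.09 in MA-A3 (adjusted p = 0.0031), CBP6 was 0.33 ± 0.09 in MA-A3 (adjusted p = 0.023), and CBP3 passed in no single line. COX14 and COX19 act in complex IV assembly, and CBP3 and CBP6 in the making of cytochrome b. Of 7 genes that feed electrons in, NDE1, NDI1 and CYB2 passed the F test, against 18.7% of all genes. They lie on chromosome XIII and were 1.17 ± 0.12, 1.03 ± 0.11 and 1.23 ± 0.13 in MA-A3 (adjusted p = 1.51e-05, 1.89e-05 and 1.97e-05). Genes of chromosome XIII had a median of 0.56 in MA-A3, and the 18.7% is a share over all chromosomes. For NDE1, NDI1, CYB2, COX14 and AAC1, a change of the gene and a shift of the whole chromosome were not told apart.

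The 7 subunit genes of the mitochondrial genome (COX1, COX2, COX3, COB, ATP6, ATP8 and OLI1) are counterparts of the nuclear ones in complexes III, IV and V. None passed the F test by limma, with 3 of 7 under 0.05 before adjustment. Their median line values were -0.29 in MA-A0, 0.21 in MA-A1, -0.20 in MA-A3, 0.18 in MA-A4 and 0.08 in MA-A8. The signs in MA-A0, MA-A1, MA-A3 and MA-A8 are opposite to those of the nuclear subunit medians, that in MA-A4 is the same, and the difference between the sets was not tested. Between single lines 3 genes passed: COB, the cytochrome b gene, was -0.59 ± 0.17 in MA-A3 minus MA-A8 (adjusted p = 0.0279), ATP8 was -0.49 ± 0.15 in MA-A3 minus MA-A1 (adjusted p = 0.0441) and OLI1 was -1.39 ± 0.42 in MA-A3 minus MA-A4 (adjusted p = 0.0444). COB has values on 8 arrays.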

How the data were processed

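Per the labels, total RNA was labelled with the Genisphere 3DNA system and each array carried a Cy5 line (channel 1) and a Cy3 line (channel 2). The deposited values were read as log2 ratios of Cy5 over Cy3. Scanner, background subtraction, spot filter and normalization are not stated in the labels or the table, and natural logarithms were not excluded. Array medians ran from -0.84 to 0.41, so the authors had not centred the table, and array medians were subtracted here. Of 7744 rows, 6282 to 6824 had values per array, 6116 named a gene and 6111 matched the R64 annotation, used for symbols and chromosomes only. Rows of a gene were averaged. A minimum of 8 arrays with a value left 5415 genes for testing.

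limma 3.58.1 (R 4.3.3) fitted Cy5 line minus Cy3 line with a dye term, with variance moderation and 5 residual degrees of freedom. The fit was tested on simulated data. Alternatives covered centring, chromosome centring, array scaling, the dye term, variance moderation, missing values, gene summaries, the sign of 1 array and leaving out each array. Calls of single genes were followed through them for the nuclear subunit genes only. All 36 members were accounted for, with full values for those that passed the F test or a line contrast and for the paralog pairs; up to 4 genes of each other list were named by F test p-value. The members and lists were chosen with earlier results of these data known. FMC1, HEM4 and DAN1 were not analysed here.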

Additional observations from a re-analysis of the deposited data

How the results depend on the processing

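Counts are of the 34 genes past the threshold, beside the reported counts of 14 for the F test, 1 for MA-A0, 7 for MA-A1, 6 for MA-A3, 0 for MA-A4 and 2 for MA-A8. Over all genes the F test count was 1014, and 145 as deposited, 539 centred within each chromosome and 1305 with scaled arrays. It was 580 without the dye term, 62 with unmoderated variances and 1276 with the sign of that 1 array turned. A change among the 34 genes need not be particular to them. On values as deposited, without centring, 3 passed the F test, 2 in MA-A3, 1 in MA-A3 minus MA-A4 and 2 in MA-A3 minus MA-A1, and the other counts were 0. Centred within each chromosome, 8 passed the F test, 4 in MA-A1 and 4 in MA-A0 minus MA-A1, with 0 in MA-A0, MA-A3 minus MA-A0, MA-A3 minus MA-A4 and MA-A0 minus MA-A4 and 1 in MA-A4 minus MA-A1. There the value of ATP18 in MA-A3 minus MA-A0 turned to -0.023 (limma adjusted p = 0.938); no other called value changed sign in any alternative. With arrays scaled to equal spread the count was 0 in MA-A0, 3 in MA-A4 minus MA-A8 and 7 in MA-A4 minus MA-A1. Without the dye term it was 7 for the F test, 1 in MA-A1, 1 in MA-A8, 7 in MA-A3 minus MA-A8 and 0 in MA-A0, MA-A3 minus MA-A0, MA-A0 minus MA-A1 and MA-A4 minus MA-A8. With unmoderated variances it was 3 in MA-A3, 5 in MA-A3 minus MA-A8, 6 in MA-A3 minus MA-A1 and 0 elsewhere, the F test included. With the sign of the MA-A0 and MA-A8 array turned it was 10 for the F test, with 4 of the 14 reported calls among them, 3 in MA-A0, 1 in MA-A1, 3 in MA-A3, 0 in MA-A8, 5 in MA-A3 minus MA-A8, 2 in MA-A3 minus MA-A4 and 0 in MA-A0 minus MA-A4 and MA-A4 minus MA-A8. The robust prior and the restriction to values on all 10 arrays each gave 1 in MA-A0 minus MA-A8 and 2 in MA-A4 minus MA-A8, and the robust prior 1 in MA-A4 minus MA-A1.

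Over all genes tested, the F test count ran from 591 to 1906 when 1 array was left out. For the line and pair counts the whole-table counts in these fits are not given. Leaving out 1 array at a time gave 6 to 28 for the F test, 0 to 11 in MA-A0, 0 to 17 in MA-A1, 2 to 10 in MA-A3, 0 to 1 in MA-A4 and 0 to 5 in MA-A8. For the pairs it gave 0 to 3 in MA-A3 minus MA-A0, 2 to 3 in MA-A3 minus MA-A4, 1 to 18 in MA-A3 minus MA-A8, 3 to 21 in MA-A3 minus MA-A1, 0 to 5 in MA-A0 minus MA-A4, 0 to 4 in MA-A0 minus MA-A8, 0 to 25 in MA-A0 minus MA-A1, 0 to 1 in MA-A4 minus MA-A8 and 0 to 5 in MA-A4 minus MA-A1. Of the reported calls, 6 of 14 F test calls, 2 of 16 line calls (COX7 and ATP18 in MA-A3) and 6 of 37 pair calls held whichever array was left out. Each of the 34 genes has 1 row, so taking the median of a gene's rows could not change their values and says nothing about them. The cause of these changes was not tested, and leaving out an array also leaves fewer degrees of freedom. No paired analysis was possible because each pair of lines was hybridised once and the labels carry no replicate numbers.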

Other observations

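Of 10 genes of coenzyme Q synthesis, which make the ubiquinone that links complexes II and III, COQ1 alone passed the F test (adjusted p = 0.0301), with 0.45 ± 0.09 in MA-A3 (limma adjusted p = 0.00315). COQ4 was lower in MA-A1, at -0.36 ± 0.09 (limma adjusted p = 0.0479). None of 7 measured genes of haem synthesis, which supplies the cofactor of the cytochromes, passed limma's F test, with 1 of 7 under 0.05 before adjustment. Another list held genes linked to oxygen level, not all of them induced at low oxygen, with ANB1, HEM13, AAC3, TIR1 and HYP2 measured. Of these 5, AAC3 and the cell wall gene TIR1 passed the F test, TIR1 with an adjusted p of 0.0482 and in no single line. The F test background for these lists was 18.7% of all genes tested. Calls in these lists were not followed through the alternatives or the leaving out of single arrays.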
